A study of Mus musculus with 6 samples.

Results

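Lysosomes are acid-filled compartments in which soluble hydrolases degrade protein, glycan and lipid taken up from outside the cell or delivered by autophagy. The hydrolases are made in the endoplasmic reticulum, most are tagged with mannose 6-phosphate in the Golgi, and receptors carry them to the lysosome. A heavily glycosylated set of membrane proteins encloses them, and a proton pump acidifies the lumen. In liver, hepatocytes hold many lysosomes, and macrophages, which clear dead cells and debris, are especially rich in them.

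The 31 genes described here encode 11 cathepsins, the asparaginyl protease legumain, and other lysosomal hydrolases, cofactors and membrane proteins. They were taken by symbol from a fixed list, and all 31 were found among the 55802 rows of the deposited count table. RNA came from the liver of C57BL/6 mice labelled WT, and libraries were built with a kit for messenger RNA. The CCl4 group (3 libraries) was given carbon tetrachloride, a solvent that hepatocytes turn into a reactive radical and that is used to model liver injury and fibrosis. The control group (3 libraries) was given oil, and the labels give no dose, duration, age or sex. Whether each library is its own animal is not stated, and the p-values therefore cover library-to-library spread that could be technical. Below, n and SD refer to libraries, and values given for CCl4 or control livers are those of the libraries.

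All 31 genes passed the filter on low counts and were among 15579 genes tested. Values are CPM, counts per 1000000 of the library size scaled by TMM, and a call means a Benjamini-Hochberg adjusted p under 0.05 in edgeR's quasi-likelihood test over all genes tested. Library totals were 18929972 to 20042731 counts. The least abundant of the 31 genes, Ctsk, held 105, 131 and 146 counts in CCl4 libraries, against 21, 13 and 17 in control libraries. The liver label was checked on hepatocyte markers, of which 8 had a row and none stood at 0 in any library. Their summed level was 96097 to 100014 CPM in CCl4 livers and 96071 to 103919 CPM in control livers. Most of that sum was Alb, at means of 73971 CPM in CCl4 livers and 71800 CPM in control livers. The sum therefore says little about the other markers. On the log2 scale the 8 markers changed by -1.01 to 0.24, with a median of -0.21. On the second principal component, with 8.87% of the variance, CCl4 replicate 3 stood apart from the other CCl4 libraries. Without it, 16 of the 31 genes were called higher and 8 lower.

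In CCl4 livers 17 of the 31 lysosomal genes were called higher and 6 lower, and 8 had no call. Among all genes tested, 21.2% were called higher and 20.1% lower, 41.3% in all, so the share of lysosomal genes called lower (19.4%) lay near the background and the share called higher (54.8%) above it. A call of higher with a change of at least 1 on the log2 scale was reached by 5 of the 31 (Ctsk, Ctss, Laptm5, Lgmn and Ctsd), against 10.1% of all genes tested. On the log2 scale the median change was 0.19 over the 31 genes and 0.00056 over all genes tested. For 27 of the 31 genes the CPM ranges of the groups lay apart, where 54% of all genes tested showed the same. These 27 included 20 higher in every CCl4 library than in any control library, against 27.6% of all genes tested. The balance of calls moved with the scaling. With library size alone, all genes had a median of 0.15, 4824 genes were called higher and 1676 lower (3303 and 3124 under TMM), and the lysosomal counts were 20 higher and 3 lower. With upper quartile scaling, 4103 genes were called higher and 2177 lower, with lysosomal counts of 20 and 4.

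**Figure D1:**
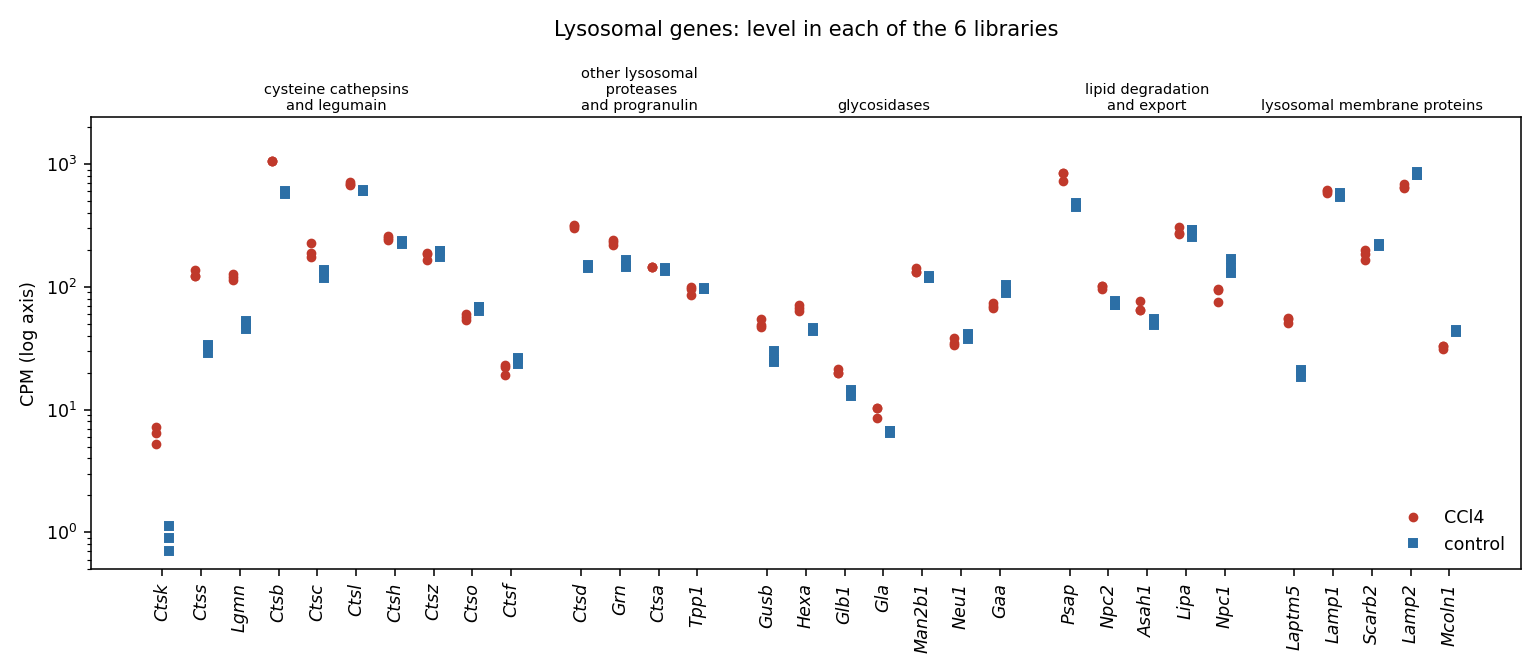
Level of each of the 31 lysosomal genes in CPM (log axis), by role, with red circles for the 3 CCl4 libraries and blue squares for the 3 control libraries. Ctsk, Ctss, Lgmn, Ctsd and Laptm5 show the widest gaps. Under TMM, Npc1, Gaa, Mcoln1, Lamp2, Scarb2, Ctsf and Ctso lie lower in every CCl4 library than in any control library.

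Promoter sequence is shown for the 4 genes whose windows carry a full TFEB-type palindrome, and for Lamp1, whose window repeats its core. TFEB and its relatives are known to drive lysosomal genes in mammals through this short palindrome, and these genes went different ways in CCl4 livers. RefSeq promoter windows (GRCm38.p6, from 250 bases before to 50 after the gene start) were matched for 27 of the 31 genes. The palindrome TCACGTGA was present for 4 of the 27 (14.8%), against 1.12% of all 27025 genes with a window and 2.08% of the 10904 tested genes with one. Its core CACGTG, searched separately and lying within it, was present for 10 of the 27 (37%), against 8.09% of all genes and 11.4% of tested genes. Windows with the core alone that are not printed are those of Ctsl, Glb1 and Lgmn (called higher), Gaa (lower) and Ctsf (no call). Both are palindromes, so 1 search covers both strands. Capitals mark the sites, and each line runs 5′ to 3′ on the gene's strand:
Ctsd, chr7:142387899-142387946, minus strand: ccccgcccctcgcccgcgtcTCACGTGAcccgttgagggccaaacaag
Gla, chrX:134601173-134601253, minus strand: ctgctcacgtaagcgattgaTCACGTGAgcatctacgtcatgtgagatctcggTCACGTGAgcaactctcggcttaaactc
Mcoln1, chr8:3500453-3500500, plus strand: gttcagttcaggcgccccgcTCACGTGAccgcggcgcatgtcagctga
Ctsa, chr2:164833740-164833802, plus strand: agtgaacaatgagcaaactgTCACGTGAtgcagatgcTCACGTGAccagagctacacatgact
Lamp1, chr8:13159080-13159171, plus strand: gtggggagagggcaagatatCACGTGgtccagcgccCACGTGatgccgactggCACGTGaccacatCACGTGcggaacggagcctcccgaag

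The Lamp1 window holds the 6-base core 4 times within a short stretch, without the full palindrome. Of the genes printed, Ctsd and Gla were called higher, Mcoln1 was called lower, and Ctsa and Lamp1 had no call. Over the genes with a window, the palindrome was present in 2 of 15 called higher, 1 of 5 called lower and 1 of 7 without a call. Genes with the palindrome thus occurred in every class of call, and a match in these letters is a description and not a measured binding site.

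A second motif, the ETS-type sequence GAGGAAGT, was searched on both strands because ETS factors such as PU.1 are known to act in macrophages. It was present for 4 of the 27 genes (14.8%), Ctsc, Ctss, Gla and Gusb, against 3.69% of all genes with a window. All 4 were called higher, but most of the 15 genes with a window that were called higher had no such match. A match here is also a description and not a measured binding site. Capitals mark the site, which lies on the opposite strand in the 3 windows shown:
Ctss, chr3:95526764-95526811, plus strand: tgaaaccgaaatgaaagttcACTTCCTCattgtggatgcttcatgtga
Ctsc, chr7:88277914-88277961, plus strand: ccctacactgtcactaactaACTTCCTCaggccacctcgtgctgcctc
Gla, chrX:134601126-134601173, minus strand: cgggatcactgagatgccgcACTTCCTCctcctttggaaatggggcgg

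Among the cysteine proteases, 6 of 10 (60%) were called higher and 1 (10%) lower, against 21.2% and 20.1% of all genes tested. Ctsk (ENSMUSG00000028111) encodes cathepsin K, a collagen-cutting protease best known from osteoclasts. Its level was 5.29, 6.48 and 7.17 CPM in CCl4 livers and 1.12, 0.702 and 0.901 CPM in control livers. Every CCl4 library lay above every control library, and the change was the largest of the 31 genes, at a log2 fold change of 2.79 (SE 0.22, edgeR adjusted p = 1.87e-05), a ratio of 6.92 with a 95% interval of 4.95 to 9.67. Ctss (ENSMUSG00000038642) encodes cathepsin S, which trims the invariant chain of MHC class II in antigen-presenting cells. It stood at 138, 123 and 123 CPM in CCl4 livers and 33.2, 33.8 and 28.8 CPM in control livers, again without overlap (2.00 on the log2 scale, SE 0.08, adjusted p = 6.38e-07), a ratio of 4.004 with a 95% interval of 3.55 to 4.52. In the RefSeq annotation Ctsk and Ctss are direct neighbours on mouse chromosome 3.

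Lgmn (ENSMUSG00000021190) encodes legumain, which cuts after asparagine and also processes several cathepsins. It was measured at 128, 120 and 113 CPM in CCl4 livers and 50.1, 53.0 and 45.3 CPM in control livers, a gain of 1.28 (log2, SE 0.07, adjusted p = 3.91e-06). Ctsb (ENSMUSG00000021939), cathepsin B, is an abundant protease of hepatocytes and macrophages alike. It reached 1059, 1051 and 1052 CPM in CCl4 livers, against 579, 575 and 599 CPM in control livers, so the libraries of each group lay close together and far from the other group (0.85, SE 0.06, adjusted p = 9.65e-06). Ctsc (ENSMUSG00000030560), cathepsin C, activates the serine proteases of neutrophils and lymphocytes. Its values were wider, with 226, 187 and 173 CPM in CCl4 livers and 137, 132 and 117 CPM in control livers, and CCl4 replicate 1 was the highest (0.60, SE 0.10, adjusted p = 0.00185).

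The other cysteine cathepsins moved little. Ctsl (ENSMUSG00000021477), cathepsin L, was at 709, 689 and 677 CPM in CCl4 livers and 605, 612 and 600.0 CPM in control livers, a small rise of 0.19 (SE 0.06, adjusted p = 0.0218) without overlap. That call was lost without CCl4 replicate 1, CCl4 replicate 2 or any 1 of the 3 control replicates, at adjusted p values of 0.0535 to 0.0761. Ctso, a broadly expressed cathepsin, was called lower, with 60.5, 57.3 and 54.1 CPM in CCl4 livers and 64.1, 68.6 and 68.2 CPM in control livers (-0.22, SE 0.06, adjusted p = 0.0140), and lost the call under upper quartile scaling (adjusted p = 0.0902) and library size alone (0.281). Ctsf (-0.23, adjusted p = 0.0584), the aminopeptidase Ctsh (0.12, adjusted p = 0.116) and the carboxypeptidase Ctsz (-0.061, adjusted p = 0.530) had no call. The 95% interval of the log2 fold change was -0.43 to -0.036 for Ctsf, -0.0058 to 0.25 for Ctsh and -0.22 to 0.10 for Ctsz. Ctsf was called lower without CCl4 replicate 3 (-0.29, adjusted p = 0.0257) and with no filter on low counts (-0.24, 0.0300), and Ctsh was called higher under upper quartile scaling (adjusted p = 0.0145) and library size alone (0.00396).

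Of the proteases of other classes, Ctsd stood out. Ctsd (ENSMUSG00000007891) encodes cathepsin D, the main aspartic protease of lysosomes. Its level was 315, 319 and 299 CPM in CCl4 livers and 142, 149 and 150.3 CPM in control livers, a ratio of 2.12 (95% interval 1.94 to 2.32, adjusted p = 3.33e-06). In GENCODE M21, 34.4% of the exon bases of Ctsd also belong to Gm49369 on the same strand, and how reads shared by both were counted is not given, so its level is uncertain. Grn (ENSMUSG00000034708), progranulin, a glycoprotein carried to lysosomes and cut there into granulins, stood at 240.0, 231 and 218 CPM in CCl4 livers and 147, 165 and 145 CPM in control livers (0.60, SE 0.07, adjusted p = 1.58e-04). Tpp1, a tripeptidyl peptidase, averaged 93.4 ± 6.97 CPM in CCl4 livers and 95.9 ± 0.913 CPM in control livers (SD, n = 3 each), with overlapping groups and no call by edgeR (adjusted p = 0.646).

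Glycosidases were called higher in 5 of 7 cases (71.4%) and lower in 1 (14.3%), against 21.2% and 20.1% of all genes tested. Gusb (ENSMUSG00000025534), beta-glucuronidase, had 49.0, 54.5 and 47.3 CPM in CCl4 livers and 25.4, 29.8 and 24.5 CPM in control livers (0.92, SE 0.09, adjusted p = 5.31e-05). Hexa, the alpha subunit of beta-hexosaminidase, which removes hexosamines from gangliosides, stood at 66.9, 63.7 and 71.7 CPM in CCl4 livers and 43.9, 44.8 and 46.0 CPM in control livers, without overlap (0.59, SE 0.06, adjusted p = 7.80e-05). Glb1, beta-galactosidase (0.57, adjusted p = 5.33e-04), and Gla, alpha-galactosidase A (0.56, adjusted p = 0.00361), also rose. Man2b1, an alpha-mannosidase, rose by 0.18 (adjusted p = 0.0247), and that call was lost without CCl4 replicate 3, control replicate 1 or control replicate 3 (adjusted p 0.0569 to 0.0880), with no filter on low counts (0.0612) and in DESeq2 (0.0599).

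Gaa (ENSMUSG00000025579) went the other way. It encodes acid alpha-glucosidase, which breaks down glycogen inside lysosomes, and was measured at 70.4, 67.2 and 74.2 CPM in CCl4 livers and 89.7, 92.8 and 103 CPM in control livers. Each CCl4 library lay below each control library (-0.43, SE 0.07, adjusted p = 8.15e-04). Neu1, the sialidase, averaged 35.5 ± 2.65 CPM in CCl4 livers and 39.8 ± 2.07 CPM in control livers (SD, n = 3 each). It had no call by edgeR (-0.16, adjusted p = 0.0944) with all libraries and was called lower without CCl4 replicate 3 (-0.23, adjusted p = 0.0245).

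Glb1, Neu1 and Ctsa encode the partners of a known lysosomal complex, in which cathepsin A protects the other two enzymes from degradation. Ctsa was at 144, 145 and 145 CPM in CCl4 livers and 140.5, 134 and 143 CPM in control livers, a narrow gap without a call by edgeR (0.053, 95% interval -0.065 to 0.17, adjusted p = 0.450); it was called higher under upper quartile scaling (adjusted p = 0.0483) and library size alone (0.0140). The ratio of Glb1 to Neu1 CPM within a library was 0.600, 0.619 and 0.513 in CCl4 livers and 0.319, 0.370 and 0.349 in control livers. The ratio of Ctsa to Glb1 was 7.19, 6.74 and 7.32 in CCl4 livers and 10.95, 9.62 and 9.85 in control livers. Neither ratio overlapped between the groups in these libraries. Of 11 such ratios of paired genes that were computed, each reached p = 0.1 in a two-sided exact permutation test and 0.1 after adjustment over the 11, which is the smallest p that 3 against 3 libraries allow. The pairs were chosen after the values were seen, so a lack of overlap was favoured by the choice. The share of other gene pairs whose ratios lie apart was not computed.

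Genes of lipid breakdown and export were called higher in 3 of 5 cases (60%) and lower in 1 (20%), against 21.2% and 20.1% of all genes tested. Psap (ENSMUSG00000004207), the precursor of the saposins that lift sphingolipids out of membranes for their hydrolases, had 847, 845 and 734 CPM in CCl4 livers and 444, 479 and 458 CPM in control livers. CCl4 replicate 3 was the lowest of its group and still above every control library (0.81, SE 0.07, adjusted p = 4.33e-05). Asah1, acid ceramidase, rose by 0.43 (SE 0.08, adjusted p = 0.00179). Lipa, the acid lipase that frees cholesterol and fatty acids from lipoproteins, averaged 282 ± 20.03 CPM in CCl4 livers and 279 ± 21.2 CPM in control livers (SD, n = 3 each), with overlapping groups and no call by edgeR (0.019, 95% interval -0.15 to 0.19, adjusted p = 0.868).

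The 2 Niemann-Pick type C genes, whose products pass cholesterol from one to the other on its way out of the lysosome, parted. Npc2 (ENSMUSG00000021242), the soluble carrier, had 101, 96.1 and 101 CPM in CCl4 livers and 71.5, 70.7 and 76.0 CPM in control livers (0.45, SE 0.05, adjusted p = 1.90e-04). Npc1 (ENSMUSG00000024413), the membrane protein that takes cholesterol over, had 96.5, 94.1 and 75.9 CPM in CCl4 livers and 143, 129 and 169 CPM in control livers, the largest fall of the 31 genes (-0.73, SE 0.12, adjusted p = 0.00286). Both gaps were free of overlap. The ratio of Npc2 to Npc1 CPM was accordingly 1.04, 1.02 and 1.33 in CCl4 livers and 0.501, 0.548 and 0.450 in control livers.

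**Figure D2:**
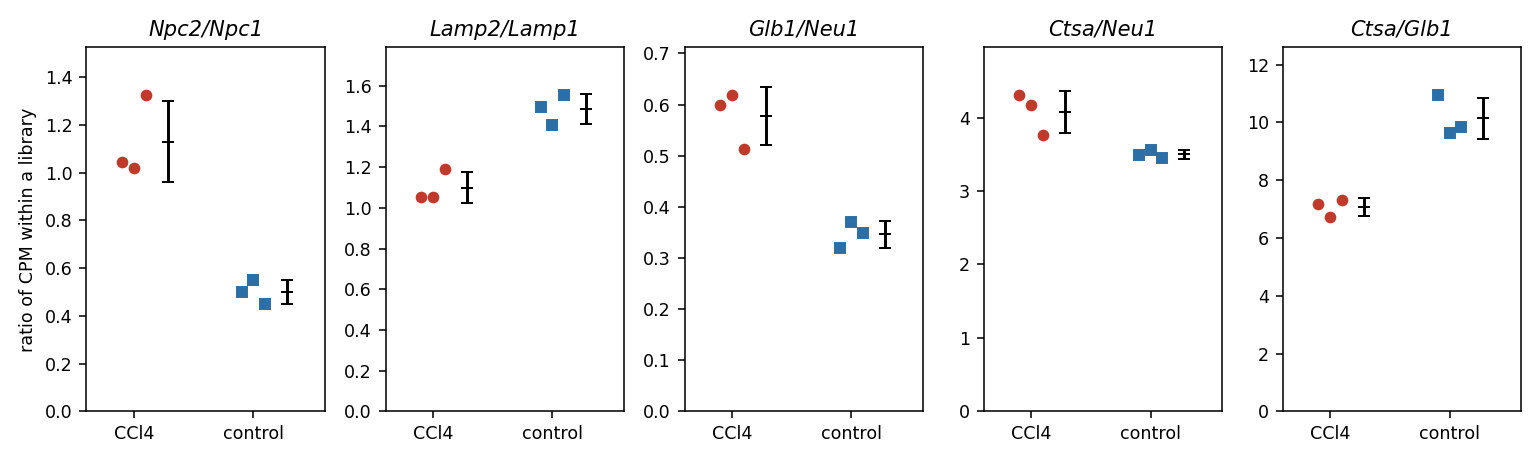
Ratio of CPM between paired lysosomal genes within each library, with red circles for CCl4, blue squares for control, and black bars for the group mean ± SD (n = 3 each). The 5 ratios plotted are Npc2/Npc1, Lamp2/Lamp1, Glb1/Neu1, Ctsa/Neu1 and Ctsa/Glb1. None overlaps between the groups, but the pairs were chosen after the values were seen. Npc2/Npc1 stood at 1.13 ± 0.170 in CCl4 livers and 0.500 ± 0.0493 in control livers.

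Membrane proteins were called lower in 3 of 5 cases (60%), with 1 higher (20%), against 20.1% and 21.2% of all genes tested. Lamp2 (ENSMUSG00000016534), a major glycoprotein of the lysosomal membrane needed for autophagy, had 636, 654 and 694 CPM in CCl4 livers and 812, 813 and 857 CPM in control livers (-0.32, SE 0.06, adjusted p = 0.00271). Scaled by library size alone it had no call (-0.17, adjusted p = 0.0617). Its relative Lamp1 had 604, 620.2 and 583 CPM in CCl4 livers and 543, 578 and 551 CPM in control livers, with no call by edgeR (0.11, adjusted p = 0.160) and a call of higher under upper quartile scaling (adjusted p = 0.0230) and library size alone (0.00671). The ratio of Lamp2 to Lamp1 CPM, which no scaling of libraries can move, was 1.05, 1.06 and 1.19 in CCl4 livers and 1.497, 1.41 and 1.56 in control livers.

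Mcoln1 (ENSMUSG00000004567), a calcium channel of the lysosomal membrane, stood at 31.3, 32.8 and 33.3 CPM in CCl4 livers and 42.8, 44.6 and 43.6 CPM in control livers, with little spread in either group (-0.43, SE 0.06, adjusted p = 3.16e-04). Scarb2, a membrane protein that also sorts cargo to lysosomes, had 201, 186 and 166 CPM in CCl4 livers and 214, 222 and 219 CPM in control livers (-0.24, SE 0.07, adjusted p = 0.0237). It had no call without CCl4 replicate 2 or any 1 of the 3 control replicates (adjusted p 0.0531 to 0.0645), under upper quartile scaling (0.111) and with library size alone (0.251). Laptm5 (ENSMUSG00000028581), a membrane protein of blood-derived cells, was the only one of the 5 called higher, with 54.7, 55.9 and 50.7 CPM in CCl4 livers and 21.1, 20.3 and 18.4 CPM in control livers (1.43, SE 0.07, adjusted p = 2.25e-06).

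**Figure D3:**
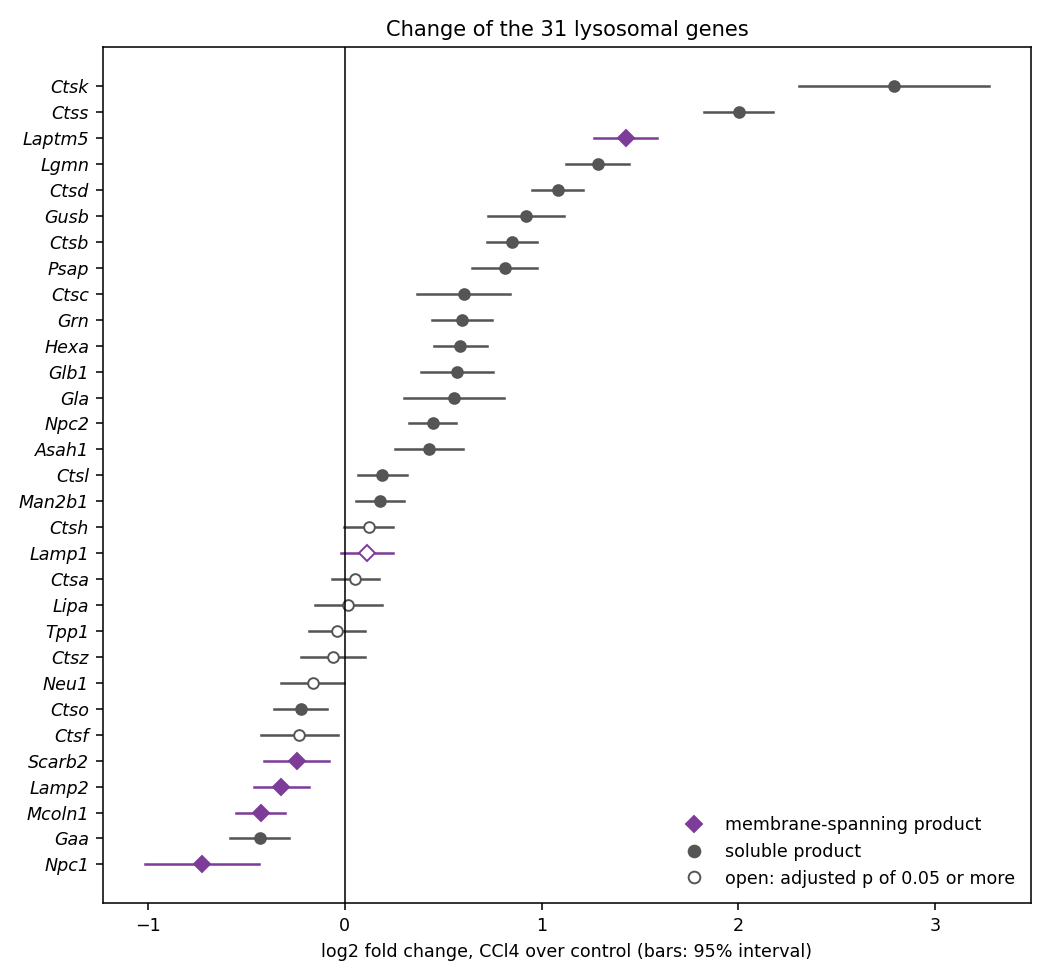
Log2 fold change of each of the 31 lysosomal genes, CCl4 over control, with 95% intervals; filled marks were called (adjusted p under 0.05, edgeR), purple diamonds are membrane-spanning products and grey circles soluble ones. Changes run from -0.73 for Npc1 to 2.79 for Ctsk, and 4 of the 6 genes called lower under TMM are membrane-spanning (2 of 3 with library size alone).

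Sorted by where the product sits, a division made after the values were seen, 16 of the 25 genes for soluble products were called higher and 2 lower, with a median of 0.45. Of the 6 genes for membrane-spanning products (Npc1 and the 5 above), 1 was called higher and 4 lower, with a median of -0.28. The shares over all genes tested were 21.2% higher and 20.1% lower. With upper quartile scaling the membrane-spanning genes had 2 called higher (Laptm5 and Lamp1) and 3 lower, and with library size alone 2 higher and 2 lower (Npc1 and Mcoln1), with a median of -0.14. The soluble genes had 18 called higher and 1 lower under either. The soluble set summed to 5253, 5139 and 5002 CPM in CCl4 livers and 3605, 3679 and 3679 CPM in control livers, a ratio of means of 1.40. The membrane-spanning set summed to 1624, 1643 and 1603 CPM in CCl4 livers and 1775, 1807 and 1858 CPM in control livers, a ratio of 0.895. Under TMM both sums were free of overlap, in opposite directions. Most of the gap in the membrane-spanning sum came from Lamp2. That gene averaged 662 CPM in CCl4 livers and 828 CPM in control livers, where the whole set averaged 1623 and 1813 CPM. The largest parts of the gap in the soluble sum came from Ctsb and Psap. In CCl4 and control livers Ctsb averaged 1054 and 584 CPM and Psap 808 and 460 CPM, where the soluble set averaged 5131 and 3654 CPM. The soluble sum stayed free of overlap under every scaling tried, at ratios of 1.40 to 1.55. The lower membrane-spanning sum did not hold with library size alone, where it was 1672, 1725 and 1727 CPM in CCl4 livers and 1690, 1729 and 1751 CPM in control livers, which overlap at a ratio of 0.991. Together the 31 genes took 0.675 ± 0.0138% of the scaled library in CCl4 livers and 0.547 ± 0.00802% in control livers (SD, n = 3 each).

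**Figure D4:**
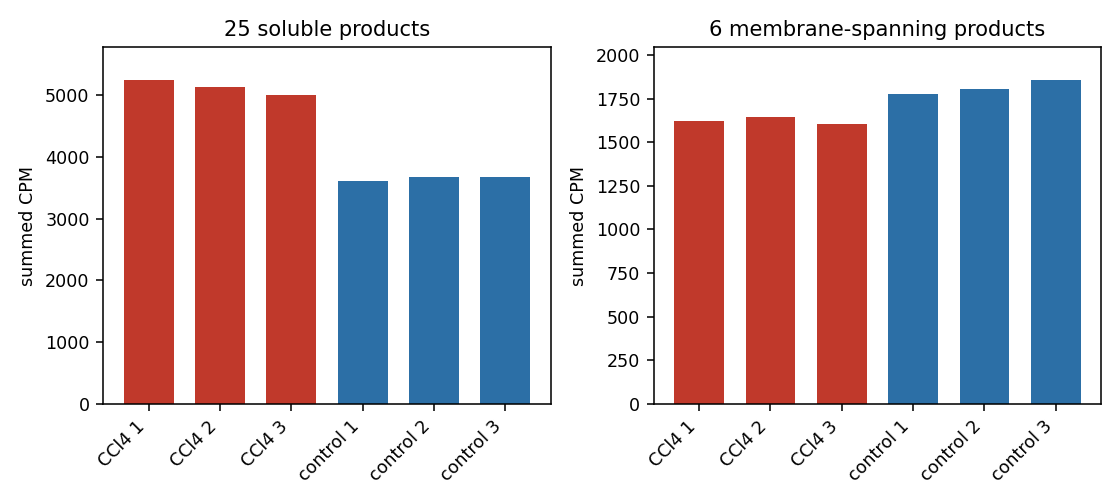
Summed CPM of the 25 soluble and the 6 membrane-spanning lysosomal products in each library, CCl4 in red and control in blue. Most of the gap in the membrane-spanning sum comes from Lamp2, and the largest parts of that in the soluble sum from Ctsb and Psap. The soluble sum is higher in all 3 CCl4 libraries (5002 to 5253 CPM, against 3605 to 3679 in control) and, under the TMM scaling plotted, the membrane-spanning sum is lower (1603 to 1643 CPM, against 1775 to 1858); with library size alone the membrane-spanning sums overlap, at 1672 to 1727 CPM in CCl4 and 1690 to 1751 CPM in control.

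The ranking of levels within the set changed too. Per kilobase of exon in GENCODE M21, Psap was the most abundant of the 31 in CCl4 livers, at 295 CPM per kilobase, followed by Lamp1 (225) and Ctsb (174). In control livers Lamp1 led at 208 CPM per kilobase, followed by Psap (168) and Ctsz (130.1). This order rests on the lengths used. By mean CPM without regard to length, Ctsb was the highest in CCl4 livers (1054) and Lamp2 in control livers (828). Of the summed CPM of the set, Ctsb took 15.6 ± 0.282% in CCl4 livers and 10.7 ± 0.184% in control livers, while Lamp2 took 9.80 ± 0.642% in CCl4 livers and 15.1 ± 0.329% in control livers (SD, n = 3 each).

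Macrophage and monocyte markers rose in CCl4 livers. All 14 were called higher, with a median log2 fold change of 1.48 and no marker at 0 in any library, and their summed level was 830.2 to 954 CPM in CCl4 livers and 297 to 381 CPM in control livers. In whole-tissue RNA, more cells of a type and more RNA per cell cannot be told apart. Lyz2, lysozyme, changed by 2.10 (SE 0.12, adjusted p = 9.64e-06), Ccr2, a receptor of recruited monocytes, by 2.08 (adjusted p = 3.91e-06) and Cx3cr1, a chemokine receptor, by 3.597 (adjusted p = 3.54e-05). Of the 31 lysosomal genes, 2, Ctsk and Ctss, lay above the median of this list. Divided by the summed macrophage markers of the same library, Ctss gave 0.154, 0.148 and 0.129 in CCl4 livers and 0.0983, 0.0887 and 0.0972 in control livers. Laptm5 gave 0.0612, 0.0673 and 0.0531 in CCl4 livers and 0.0626, 0.0533 and 0.0622 in control livers. By that measure Ctsk and Ctss were higher in every CCl4 library, Laptm5 and Lgmn overlapped, and the other 27 genes were lower in every CCl4 library. The divisor itself averaged 893 CPM in CCl4 livers and 338 CPM in control livers. A gene without a change, such as Lipa, therefore comes out lower, and the split mainly restates the fold changes. The share of all genes tested that would come out lower was not computed. The part of these markers in the lysosomal changes was not tested.

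The remaining marker lists gave a mixed background. Of 9 stellate cell and fibroblast markers, 7 were called higher and 0 lower, with a summed level of 966 to 1090.4 CPM in CCl4 livers and 307 to 361 CPM in control livers and no marker at 0; Col3a1 changed by 2.84 and Col1a1 by 3.83. Of 8 markers of Kupffer cells, the resident macrophages, 2 were called higher and 3 lower, with 476 to 567 CPM in CCl4 livers and 521 to 666 CPM in control livers. Cd5l changed by 1.23 and C6 by -1.54, and Clec4f stood at 102 ± 11.1 CPM in CCl4 livers and 99.1 ± 8.89 CPM in control livers (SD, n = 3 each, edgeR adjusted p = 0.760). All 3 neutrophil markers tested were called higher (S100a8 by 1.75, S100a9 by 2.20), at sums of 25.7 to 28.8 CPM in CCl4 livers and 6.04 to 9.37 CPM in control livers, and Ly6g and Mpo were too low to test. Biliary markers were called higher in 3 of 4 cases (Krt7 by 2.00). Of 8 hepatocyte markers 1 was called higher and 2 lower (Apob by -0.36, Alb at 0.043 without a call, adjusted p = 0.655), counts that ran from 0 to 1 and from 1 to 4 when 1 library was left out. The lists of endothelial cells and of lymphocytes had 1 call each, Kdr (-0.18) and Cd79a (0.59). Endothelial markers called higher, 0 under TMM in edgeR, numbered 1 in DESeq2, in limma-voom, with the replicate block and without control replicate 1, 2 under upper quartile scaling and 3 with library size alone. Kdr had no call without CCl4 replicate 2, CCl4 replicate 3, control replicate 1 or control replicate 2 (edgeR adjusted p 0.0900 to 0.116), in DESeq2 (0.125), under upper quartile scaling (0.255), with library size alone (0.639) or with a stricter filter (0.0514). Cd79a had none without any 1 library (edgeR adjusted p 0.0560 to 0.0894), in DESeq2 (0.151) or with no filter on low counts (0.0897).

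Beyond the 31 genes, other lysosomal hydrolases and cofactors were called higher in 13 and lower in 4 of 37 tested, against 21.2% and 20.1% of all genes, with a median of 0.084. Pla2g15, a lysosomal phospholipase, changed by 0.85 (adjusted p = 3.68e-05) and was chosen as an example after its values were seen. Plbd1, a phospholipase B-like hydrolase, was lower by a log2 change of -1.74 (SE 0.07, adjusted p = 6.38e-07), to 13.1 ± 0.670 CPM in CCl4 livers, against 44.0 ± 1.54 CPM in control livers (SD, n = 3 each). With library size alone, 22 of this list were called higher.

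Other lysosomal membrane proteins and transporters were called higher in 9 and lower in 7 of 33 tested. These shares, 27.3% and 21.2%, lay near those of all genes tested (21.2% and 20.1%). The median of this list was 0.060, where the 6 membrane-spanning genes above had a median of -0.28. Gpnmb, a glycoprotein of lipid-laden macrophages, stood at 116 ± 31.5 CPM in CCl4 livers and 0.586 ± 0.331 CPM in control livers (SD, n = 3 each; 7.61, SE 0.43, adjusted p = 1.83e-04), and the macrophage marker Cd68 changed by 1.92 (SE 0.11, adjusted p = 3.91e-06). The 7 called lower were Tmem192, Tmem106b, Mfsd8, Slc17a5, Abca2, Abcd4 and Lmbrd1, a count that stood at 4 without CCl4 replicate 1, 3 without CCl4 replicate 2, 4 in DESeq2, 3 under upper quartile scaling and 2 with library size alone, where 14 were called higher.

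Subunits of the V-ATPase, the proton pump, were called higher in 7 and lower in 1 of 20 tested (median 0.072). These shares were 35% and 5%, against 21.2% and 20.1% of all genes tested. The largest change was that of Atp6v0d2, a subunit known from osteoclasts and macrophages, at 21.2 ± 6.42 CPM in CCl4 livers and 4.36 ± 0.557 CPM in control livers (SD, n = 3 each; 2.28, SE 0.26, adjusted p = 6.26e-04). Tcirg1, another subunit prominent in those cells, changed by 0.59 (SE 0.06, adjusted p = 8.35e-05), and the subunit called lower was Atp6v0a1 (-0.22). With library size alone the counts were 14 and 0.

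Genes that deliver hydrolases to the lysosome had 2 called higher and 2 lower of 15 tested. The share called was 26.7%, against 41.3% of all genes tested. Sort1, the sorting receptor sortilin, was lower at 23.5 ± 3.86 CPM in CCl4 livers, against 52.8 ± 7.39 CPM in control livers (SD, n = 3 each; -1.16, SE 0.14, adjusted p = 6.19e-04). Gnptab, which makes the mannose 6-phosphate tag, was called higher (0.35, adjusted p = 0.00618), as was Vps29 (0.17, adjusted p = 0.0408), and Ap1g1 was called lower (-0.27). The count called higher was 1 without CCl4 replicate 2, CCl4 replicate 3 or any 1 of the control replicates, in DESeq2, with no filter on low counts and with the replicate block, and 5 under upper quartile scaling and library size alone.

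The TFEB family and the mTORC1 scaffold, which senses nutrients on the lysosomal surface and holds TFEB in the cytosol, had 1 gene called higher and 5 lower of 17 tested. These shares were 5.88% and 29.4%, against 21.2% and 20.1% of all genes tested. Tfeb itself stood at 6.92 ± 0.192 CPM in CCl4 livers and 5.78 ± 0.440 CPM in control livers (SD, n = 3 each), with no call by edgeR (0.26, 95% interval -0.00183 to 0.52, adjusted p = 0.103). Tfe3 (0.096, adjusted p = 0.237) and Mitf (0.23, adjusted p = 0.197) had none either. With library size alone Tfeb (adjusted p = 0.0217), Tfe3 (0.0139) and Mitf (0.0425) were all called higher, Tfeb (0.0376) and Tfe3 (0.0385) also under upper quartile scaling, and Mitf (0.0475) without CCl4 replicate 3. Tfec, a family member of macrophages, rose by 0.88 (SE 0.18, adjusted p = 0.00379). The 5 called lower were Flcn (-0.74, SE 0.09, adjusted p = 1.71e-04), its partners Fnip1 (-0.64) and Fnip2 (-0.56), Rptor (-0.42) and Mtor (-0.31). The count called higher was 2 without CCl4 replicate 1, CCl4 replicate 3 or control replicate 2, 5 under upper quartile scaling and 9 with library size alone.

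Inhibitors of cysteine cathepsins were called higher in 3 of the 4 that could be tested, of 10 listed. Among all genes tested, 21.2% were called higher. Cstb, cystatin B, stood at 36.5 ± 1.46 CPM in CCl4 livers and 23.7 ± 0.791 CPM in control livers (SD, n = 3 each; 0.62, SE 0.06, adjusted p = 7.71e-05). Cst3, cystatin C, and Kng1, a kininogen that hepatocytes secrete, each changed by 0.34.

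**Figure D5:**
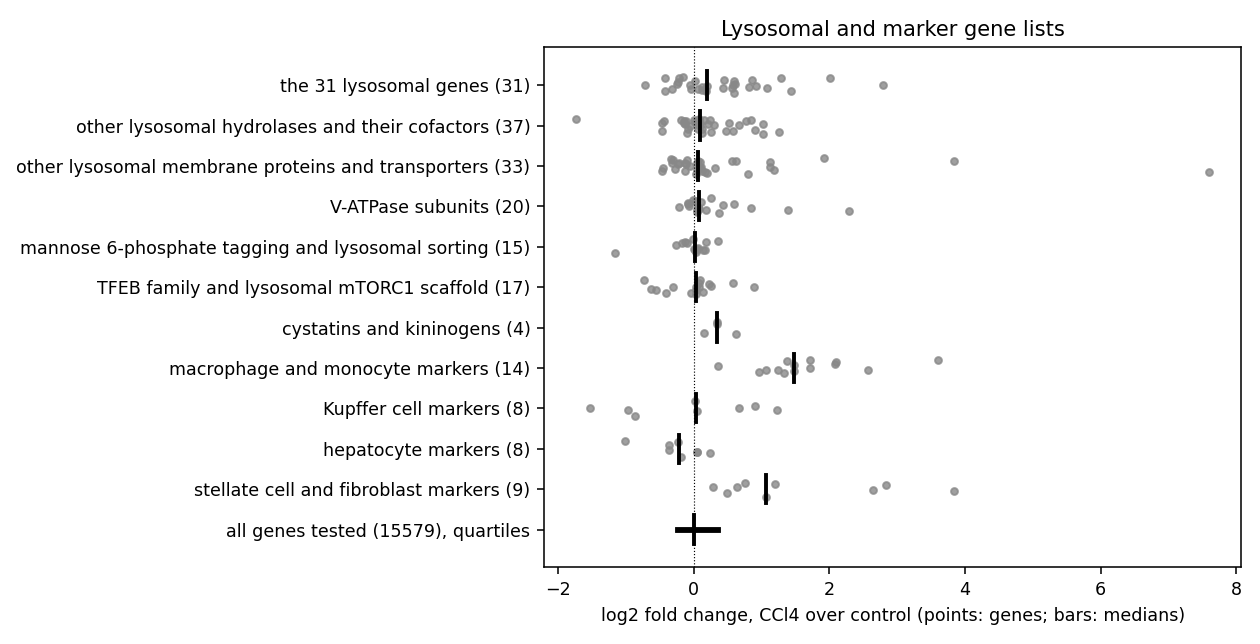
Log2 fold change, CCl4 over control, of every tested gene in each list (grey points, number tested in brackets) with the list's median as a black bar; the bottom line gives the quartiles of all 15579 genes tested. The median of the 31 lysosomal genes is 0.19, that of the macrophage markers 1.48, and those of the other hydrolases, membrane proteins, V-ATPase, sorting and TFEB lists lie between 0.019 and 0.084.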

How the data were processed

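Per the series' design text, adapters and low-quality reads were removed and reads aligned with HISAT2; per the submitters' processing notes, featureCounts was used. No source used here gives their versions, the genome build, the annotation or the strand setting, so overlapping and antisense genes cannot be told apart with certainty. In GENCODE M21, 26.8% of the exon bases of Ctsl lie under the antisense gene Gm47123, and 10.5 to 12.8% of those of Ctsa, Ctsb and Hexa under a gene on the other strand. The deposited table holds raw counts per gene, not normalized by the authors. Intervals cover the spread between libraries or counting error, without molecular identifiers.

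Symbols came from GENCODE M21 identifiers. Rows without an Ensembl identifier (443 of 55802) held 0.543 to 0.679% of counts. Genes were kept with filterByExpr, scaled by TMM and tested with edgeR 4.0.16 in R 4.3.3 (glmQLFit, robust; Benjamini-Hochberg over 15579 genes). Each SE was derived from the log2 fold change and its F statistic. No replicate was merged, since all pairs differed beyond counting noise (chi-square 5.71 to 25.8 per gene). The fit was first tested on simulated data. Alternatives were other scalings and filters, DESeq2 1.42.0, limma-voom (limma 3.58.1), a block for the replicate number, and leaving out single libraries. The 31 genes and all lists were chosen with earlier results of these data known. Named beyond the 31 were, per list, the called gene of smallest adjusted p and of largest change, and Tfeb, Tfe3, Mitf, Cd68, Gpnmb, Lyz2, Clec4f, Alb and Col1a1; any other was chosen after its values were seen. The hepatocyte list's symbol Tf matched no row. Promoter sequences are RefSeq's on GRCm38.p6, a build not known to be the one behind the counts. Some genes of the lists are counted but not reported here by name.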

Additional observations from a re-analysis of the deposited data

How the results depend on the processing

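Over 14 alternatives, 18 of the 23 called lysosomal genes kept call and direction in all (15 higher, 3 lower), 5 lost the call in at least 1, and none changed direction. Of the 8 genes without a call, 5 gained one in at least 1 alternative. With library size alone, genes called lower numbered 1676 among all genes and 3 among the 31 (Npc1, Gaa and Mcoln1), which follows from a median of all genes that moved to 0.15. With 1 library left out, 15 to 16 of the 31 were called higher and 5 to 8 lower. Same-numbered replicates deviated together only weakly (r = 0.0713, 0.0276 and 0.109), so the numbers were not taken as pairs. The replicate block gave 3298 genes called higher and 3118 lower, and 17 and 6 of the 31, as without it. Signs turned only where nothing was called. Ctsz stood at 0.025 under upper quartile scaling and 0.085 with library size alone, and Tpp1 at 0.047 and 0.11. With 1 library left out, Tpp1 ran from -0.080 to 0.020, Lipa from -0.048 to 0.059 and Clec4f from -0.035 to 0.12. Turned signs came without CCl4 replicate 3 for all 3 genes, without control replicate 1 for Lipa and without control replicate 3 for Clec4f. Cd79a lost its call under the replicate block (0.59, adjusted p = 0.0573). The causes of these turns were not tested. At 13 to 146 counts per library, Ctsk is the gene whose value depth limits most. Chosen after seeing the data, the scalings were also applied to the sums. CCl4 over control was 0.894 to 0.991 for membrane-spanning and 1.40 to 1.55 for soluble products. Groups lay apart for 25 to 27 of the 31 genes, against 53.7 to 54.8% of all genes tested under the same scalings.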
